A study of Mus musculus with 20 samples.

Results

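The genes described here are the peptide ligand gene Apln, the second ligand gene Apela and the receptor gene Aplnr of the mouse apelin system, 3 of the 46517 genes in a table of RNA-seq counts. They were found by matching the Ensembl identifiers of the table to gene symbols. Apln was chosen by its measured difference between Zdhhc9 knockout and wild-type corpus callosum, so the values of the 3 genes in that comparison are given as a description without a test. Aplnr and Apela were added as the receptor and the other ligand of the pathway. The optic nerve libraries were not used in that choice, and knockout is tested against wild type there. The comparisons between tracts include the callosum libraries, so the values of the 3 genes in them are a description too.

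The 20 libraries came from 2 white matter tracts of mice labelled Zdhhc9 knockout or wild type. There were 6 knockout and 5 wild-type libraries of corpus callosum, and 5 knockout and 4 wild-type libraries of optic nerve. The corpus callosum, the tract that joins the hemispheres, was dissected from frozen coronal sections, and the optic nerve is the tract from the retina. The submitters' design text speaks of a knockdown where the sample labels say knockout, and the labels used here give neither age, strain, sex nor the part of Zdhhc9 that was removed.

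Apelin is a secreted peptide that is cut from a precursor and acts on the apelin receptor, a G protein-coupled receptor. In growing vessels Apln is a known product of endothelial tip cells and Aplnr is a known gene of venous and sprouting endothelium. Apela codes for a short peptide, also called Elabela or Toddler, that acts on the same receptor and is best known from early development and the placenta. Hypoxia is a known inducer of Apln.

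Library totals ran from 15401130 to 26095622 estimated counts. Zdhhc9, which codes for a palmitoyltransferase and is the targeted gene, averaged 47.9 ± 5.34 CPM (counts scaled to library size with TMM factors; SD, n = 6) in knockout and 183 ± 18.2 (SD, n = 5) in wild-type callosum, and 42.5 ± 7.28 (SD, n = 5) and 136 ± 15.5 (SD, n = 4) in optic nerve, with no overlap of genotypes in either tract. The oligodendrocyte gene Mog lay between 372 and 888 CPM in all 20 libraries, Xist had no count in any and the Y-linked gene Ddx3y lay between 58.4 and 123 CPM. 3 of the 5 knockout and 1 of the 4 wild-type optic nerve libraries carry a number that recurs in corpus callosum, and the labels do not say what a number marks. The numbers of WT_ON_719857 and WT_CCg_7198587 are alike but not the same, and they were counted as different.

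The ends of the 2 ligand coding sequences are shown because the active peptides lie at the C-terminal end of their precursors. Apln (ENSMUSG00000037010.7) lies on the minus strand of chromosome X at 48025146 to 48034853 (mm10), has 3 exons in its annotated transcript and a coding sequence of 77 codons. Apela (ENSMUSG00000079042.8) lies on the minus strand of chromosome 8 at 65028417 to 65037336 and the transcript used codes for 54 codons. The last 13 codons of Apln, which code for the apelin-13 part of the precursor, and the last 11 codons of Apela are printed 5′ to 3′ from the GENCODE transcripts, with the last codon in capitals.
Apln, coding exon, chrX:48028302-48028340, minus strand: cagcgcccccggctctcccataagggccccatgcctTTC
Apela, coding exon, chr8:65035669-65035701, minus strand: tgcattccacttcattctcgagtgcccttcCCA

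The 250 bases before the annotated start of Apln are shown because the Apln transcript level is what differed between genotypes. The sequence is that of RefSeq on GRCm38.p6, minus strand, and it holds 65.2% G and C. Capitals mark a match to GGGCGG, the core of the SP1 box, 144 bases before the start, and one to CACATG, a form of the E-box, 64 bases before it.
Apln, upstream of the start, chrX:48034854-48035103, minus strand: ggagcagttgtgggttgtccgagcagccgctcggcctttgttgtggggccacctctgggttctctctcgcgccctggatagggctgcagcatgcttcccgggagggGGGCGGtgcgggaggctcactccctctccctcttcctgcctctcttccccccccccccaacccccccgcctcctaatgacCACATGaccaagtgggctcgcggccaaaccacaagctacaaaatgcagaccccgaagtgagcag
Searched on both strands, GGGCGG is found in 32.7% and CACATG in 12.3% of the 32851 RefSeq promoter windows of this length. The window has 3 matches to the general E-box CANNTG, of which CACATG is one, and 66.2% of all windows have at least 1. The hypoxia-response core has the letters ACGTG or GCGTG, found in 16.6% and 28.2% of all windows, and neither is in the Apln window. A match is a stretch of letters and not a site shown to be used.

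Apln was lower in Zdhhc9 knockout than in wild-type optic nerve. The knockout libraries measured 30.8, 31.0, 33.1, 37.2 and 37.6 CPM. The wild-type libraries measured 57.8, 67.8, 70.7 and 77.2 CPM. Every knockout library lay below every wild-type library, and the gap between the groups was wider than the range of the knockout group. The means were 33.9 ± 3.31 (SD, n = 5) and 68.4 ± 8.09 (SD, n = 4) CPM, so that the knockout kept 49.6% of the wild-type mean.

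Apln fell by 1.03 on the log2 scale (SE 0.11, adjusted p = 0.00603 over 15556 genes by edgeR's quasi-likelihood test). It ranked second of all genes by p, after Zdhhc9 (log2 fold change -1.70, SE 0.13, adjusted p = 0.000544), and these 2 genes were the only ones that passed in optic nerve, 0.0129% of those tested. Genes whose knockout libraries all lay below all wild-type libraries made up 0.926% of those tested. Left to the libraries whose numbers do not recur in corpus callosum, 2 knockout and 3 wild-type, the fold change was -1.26 (SE 0.11, edgeR adjusted p = 0.0554) and no gene passed. Those 2 knockout libraries are the ones whose numbers include a letter. They measured 30.8 and 31.0 CPM, the lowest of the group, and no wild-type library carries such a number. Genotype and number form therefore cannot be told apart in the fit of non-recurring numbers. Among the libraries numbered in digits alone, 3 knockout and 4 wild-type, the fold change was -0.94 (SE 0.12, edgeR adjusted p = 0.117).

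**Figure D1:**
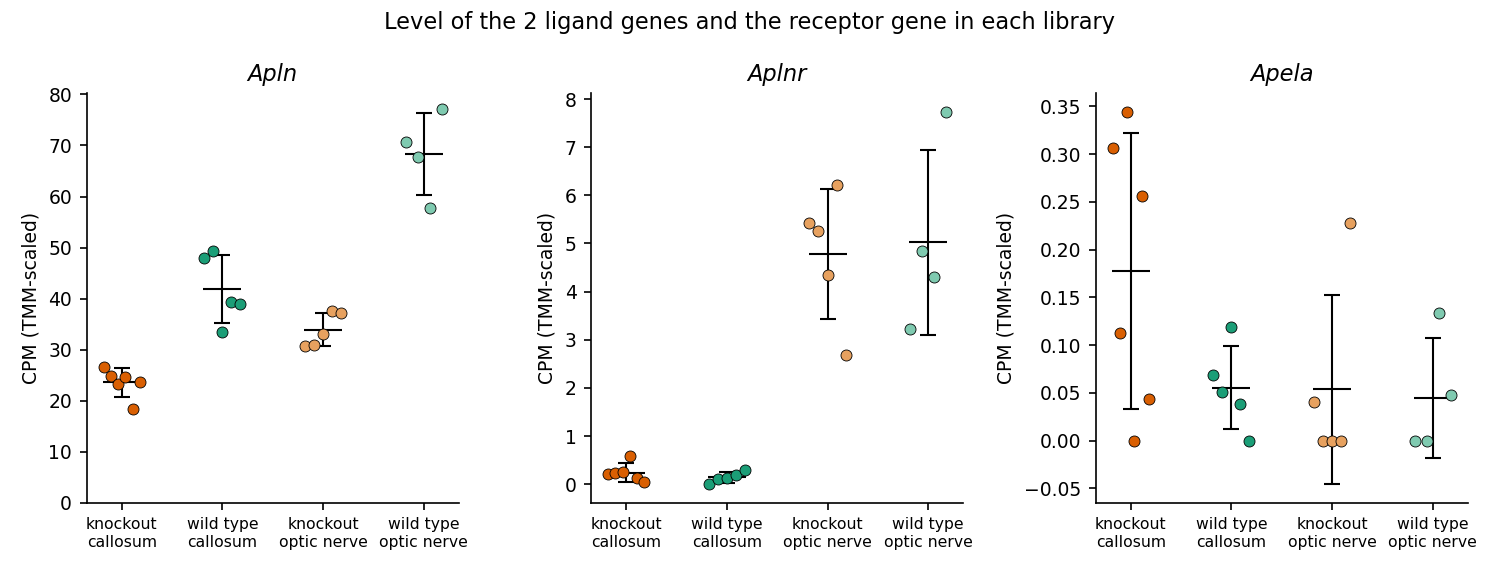
TMM-scaled CPM of Apln, Aplnr and Apela in each library by group (points), with the mean (wide bar) and SD (error bars). Apln genotypes do not overlap within either tract, Aplnr is between 2.68 and 7.73 CPM in optic nerve and at most 0.591 CPM in corpus callosum, and Apela is at most 0.344 CPM anywhere.

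In corpus callosum, the comparison from which Apln was picked, the same direction was the ground of the choice. The knockout libraries measured 18.4, 23.3, 23.7, 24.6, 24.9 and 26.7 CPM. The wild-type libraries measured 33.5, 39.0, 39.3, 48.0 and 49.3 CPM. The groups did not overlap, and the knockout mean of 23.6 ± 2.81 CPM (SD, n = 6) was 56.4% of the wild-type mean of 41.8 ± 6.67 CPM (SD, n = 5). The fitted log2 fold change was -0.83 (SE 0.12). In this comparison 6 of 15519 genes passed, 0.0387% (4 of them lower in knockout, 0.0258%), and 0.689% had all knockout libraries below all wild-type libraries. Apln was among the 6, which is how it was chosen, and it stood close to the threshold: it did not pass in 10 of the 11 fits that left out 1 library, and passed without WT_CCg_685232.

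Of the 4 genes besides Apln and Zdhhc9 that passed in corpus callosum, none passed in optic nerve. Slc45a3, a sugar transporter gene, had a log2 fold change of -0.43 there (SE 0.10, adjusted p = 0.562 by edgeR). The matrix protein gene Svep1 had 0.67 (SE 0.19, adjusted p = 0.845), the receptor tyrosine kinase gene Kit 0.35 (SE 0.13, adjusted p = 0.845) and the organic anion transporter gene Slco3a1 -0.21 (SE 0.10, adjusted p = 0.845).

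Within the callosum, the libraries with short numbers held more Apln than those with long numbers in both genotypes, at 48.0 and 49.3 against 33.5 to 39.3 CPM in wild type and 24.9 and 26.7 against 18.4 to 24.6 CPM in knockout. The knockout difference was -0.88 (SE 0.13) among short and -0.75 (SE 0.12) among long numbers. Markers of other cells moved with genotype in the callosum: all 17 listed oligodendrocyte genes had negative fold changes (median -0.59, none passing) and all 16 neuron genes positive ones (median 0.63, none passing). The 10 striatal neuron genes were all positive too, with the largest median of these lists (0.83, none passing). They summed to 886 to 1948 CPM in knockout and 550 to 1067 CPM in wild-type callosum. In optic nerve 7 of the 9 tested were positive (median 0.18, none passing). All 10 microglia genes (median -0.34) and all 10 oligodendrocyte precursor genes (median -0.28) were negative in callosum, none passing. The oligodendrocyte list summed to 36396 to 70669 CPM in knockout and 57353 to 95980 CPM in wild type, and the neuron list to 1643 to 6285 and 1473 to 4547 CPM. With the oligodendrocyte level as a covariate the Apln difference was -0.73 (SE 0.18), and with the neuron level -0.75 (SE 0.12). In optic nerve 13 of 17 oligodendrocyte genes were negative (median -0.18, none passing), and Apln with that level as a covariate was -0.98 (SE 0.11, edgeR adjusted p = 0.041). There 12 of 16 neuron genes were positive (median 0.42, none passing), and Apln with the neuron level as a covariate was -1.03 (SE 0.13, edgeR adjusted p = 0.0362). In bulk tissue, fewer cells of a type and less RNA per cell cannot be told apart.

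The knockout effect on Apln in optic nerve minus that in corpus callosum was -0.19 on the log2 scale (SE 0.17), given as a description because the callosum effect was the ground of the choice. No gene passed the test of this difference between tracts among 16440 (0%) by edgeR, and 1123 had an unadjusted p under 0.05. The 4 groups ranked, from low to high, as knockout callosum, knockout optic nerve, wild-type callosum and wild-type optic nerve. Knockout optic nerve (30.8 to 37.6 CPM) and wild-type callosum (33.5 to 49.3 CPM) overlapped.

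Aplnr, the receptor gene (ENSMUSG00000044338.9, chromosome 2, 85136225 to 85139923, plus strand), was close to the limit of detection in callosum. The knockout libraries held 1 to 15 reads, or 0.0435 to 0.591 CPM, and the wild-type libraries 0 to 7 reads, or 0 to 0.289 CPM. The gene did not pass the minimum count there. No fold change is given at these read numbers, and the groups overlapped.

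In optic nerve Aplnr was measured at 2.68, 4.35, 5.26, 5.42 and 6.21 CPM in knockout and at 3.22, 4.31, 4.85 and 7.73 CPM in wild type. The groups overlapped over most of their range. The log2 difference was -0.08 (SE 0.29, edgeR adjusted p = 0.971), and it ran from -0.25 to 0.21 when each library was left out in turn, so the sign was not settled. An interval of 2 SE on either side runs from -0.67 to 0.50, so differences within that range remain compatible with these libraries.

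Apela was near 0 in every group, with 38 reads over the 20 libraries. The knockout callosum libraries held between 0 and 8 reads and 1 of 6 held none, and the wild-type callosum libraries held between 0 and 3 and 1 of 5 held none. In optic nerve 3 of 5 knockout and 2 of 4 wild-type libraries held none, and the rest held at most 4. In the 7 libraries without a read, a count of 0 allows up to 3 reads, or 0.115 to 0.153 CPM. Apela passed no minimum count, it was not tested, and another gene model overlaps it on the same strand, so that the origin of its few reads is uncertain. Per kilobase of exon, wild-type optic nerve held 21.7 ± 2.57 CPM of Apln, 1.36 ± 0.520 of Aplnr and 0.0450 ± 0.0625 of Apela (SD, n = 4).

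Apln and Zdhhc9 lie near each other on chromosome X. Zdhhc9 (48171969 to 48208878, mm10) is on the minus strand like Apln, and its end lies 137 kb upstream of the start of Apln. The genes between and around them were therefore examined for changes of the same kind. Of the 29 genes in the table within 1 Mb of Apln, 15 were tested in callosum and 14 of these have a proper name. Apart from Zdhhc9, none of the other 13 passed in either tract, and none had knockout and wild-type libraries that did not overlap, in either direction. Over all genes 0.0387% passed in callosum and 0.0129% in optic nerve. Those with all knockout libraries below all wild-type libraries were 0.689% and 0.926%, and the share apart with knockout higher was not counted. At the shares given, 13 genes would mostly hold none, so nothing is read from these counts.

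The pair between Apln and Zdhhc9 comprises Xpnpep2, which codes for an aminopeptidase P that cleaves peptides with a proline in second place, and Sash3, an adapter gene of lymphocytes. Their optic nerve fold changes were -0.39 (SE 0.52) for Xpnpep2 and -0.16 (SE 0.24) for Sash3, and their callosum values 0.17 (SE 0.37) and -0.54 (SE 0.20). On the other side of Apln, Ocrl, an inositol phosphatase gene, had 0.39 (SE 0.13) in callosum and -0.03 (SE 0.13) in optic nerve. Smarca1, which codes for a chromatin remodelling ATPase, had 0.51 (SE 0.18) and 0.07 (SE 0.15). Beyond Zdhhc9, Utp14a and Bcorl1 had -0.06 (SE 0.11) and -0.06 (SE 0.09) in callosum and -0.04 (SE 0.17) and 0.14 (SE 0.11) in optic nerve.

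The remaining 7 neighbours, Elf4, Aifm1, Rab33a, Zfp280c, Slc25a14, Rbmx2 and Enox2, lay within the range of the 13. That range was -0.54 to 0.51 in callosum (median -0.06, 7 negative) and -0.39 to 0.23 in optic nerve (median -0.05, 9 negative). The smallest edgeR adjusted p of the 13 was 0.361 in callosum and 0.845 in optic nerve. Of the 539 genes of chromosome X tested in optic nerve, Apln and Zdhhc9 were the 2 that passed.

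**Figure D2:**
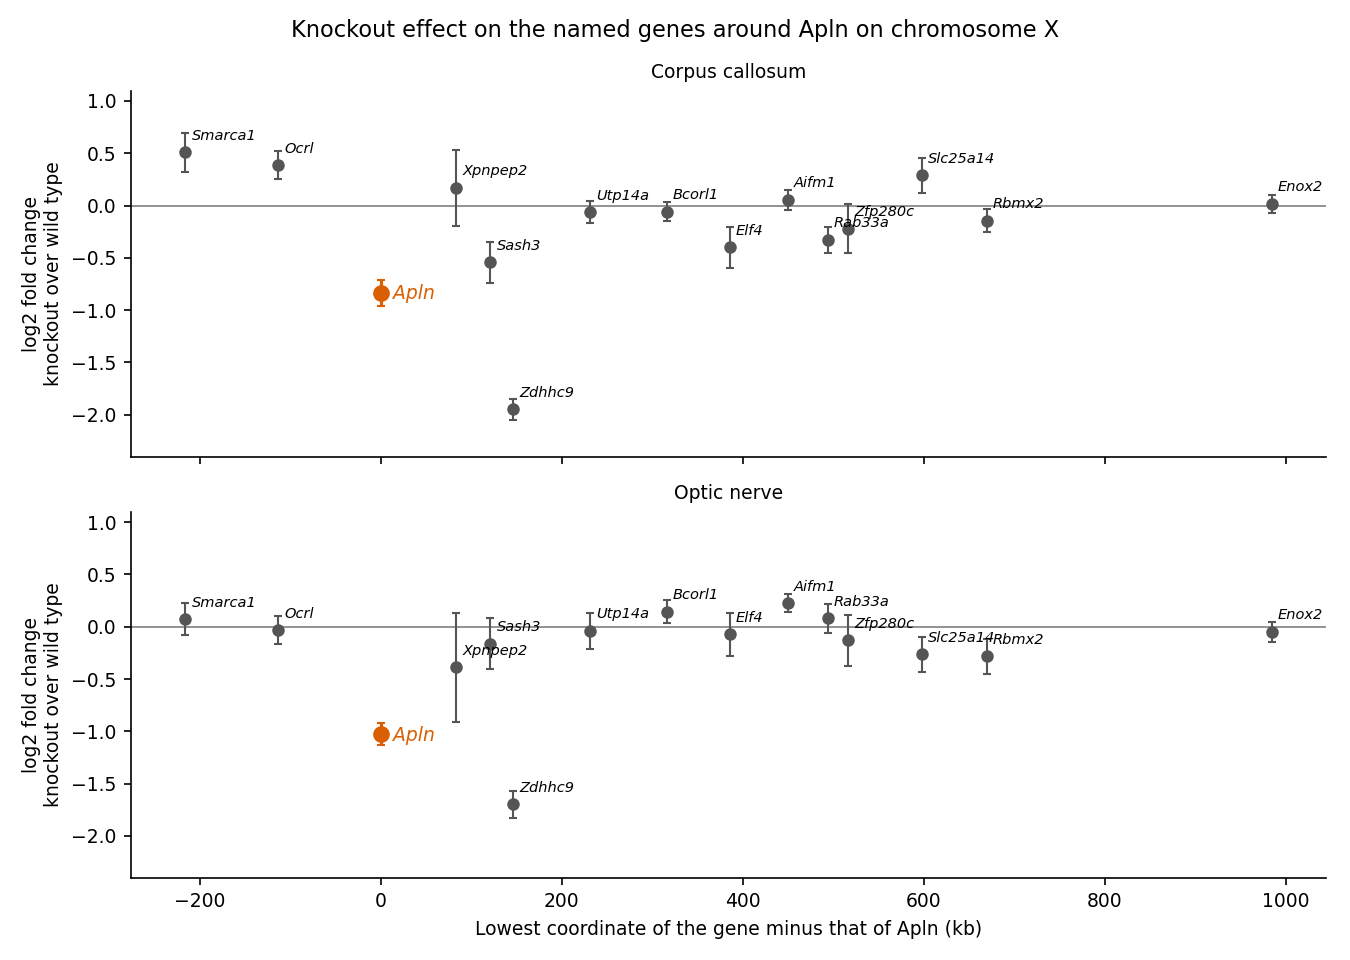
Log2 fold change (knockout over wild type, with SE) of the named genes within 1 Mb of Apln on chromosome X against distance from Apln in kb, in corpus callosum and optic nerve. Apln (-0.83 and -1.03) and Zdhhc9 (-1.95 and -1.70) lie below the other 13 genes, whose values run from -0.54 to 0.51 and from -0.39 to 0.23.

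Apln is an endothelial gene in growing vessels, so its change was set beside 27 genes of endothelium in general. Bulk libraries do not show which cells hold Apln in these tracts, so this choice of genes does not state its source. None of the 27 passed in either tract, where 0.0387% (callosum) and 0.0129% (optic nerve) of all genes passed. Their fold changes ran from -0.38 (Slc2a1, the glucose carrier gene of the blood-brain barrier) to 0.25 (Sox18, a vessel transcription factor gene) in callosum, with a median of -0.03 against -0.01 over all genes. In optic nerve they ran from -0.31 (Ly6c1) to 0.30 (Cldn5, the tight junction gene), with a median of -0.05 against 0.01 over all genes. None of the 27 was as low as Apln in either tract, and none had knockout and wild-type libraries apart. Over all genes 0.689% in callosum and 0.926% in optic nerve were apart with knockout lower, and the share apart with knockout higher was not counted. At the shares given, 27 genes would mostly hold none.

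Pecam1, the endothelial adhesion gene, had a log2 fold change of -0.10 (SE 0.10) in callosum and -0.24 (SE 0.16) in optic nerve. Cdh5, the endothelial cadherin gene, had -0.04 (SE 0.10) and 0.06 (SE 0.11). Kdr, the main receptor gene for VEGF, had 0.07 (SE 0.10) and -0.09 (SE 0.15). Cldn5 had 0.03 (SE 0.12) and 0.30 (SE 0.13).

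Relative to the mean log2 CPM of the 27 endothelial genes, Apln in the optic nerve was at -0.41, -0.40, -0.32, -0.04 and 0.32 in knockout and at 0.52, 0.74, 0.84 and 1.08 in wild type. The genotypes again did not overlap. The difference was -0.96. An exact two-sided permutation test over the 9 libraries gave p = 0.0159, the smallest the design allows (0.0317 adjusted over Apln and Aplnr). The endothelial mean itself was 5.21 ± 0.19 (SD, n = 5) in knockout and 5.26 ± 0.09 (SD, n = 4) in wild type. Apln alone already kept the genotypes apart, so this p is not separate from the fit above. In callosum Apln relative to the endothelial genes averaged 0.33 ± 0.26 (SD, n = 6) in knockout and 1.11 ± 0.20 (SD, n = 5) in wild type. Aplnr relative to the endothelial genes averaged -3.02 ± 0.55 (SD, n = 5) in knockout and -3.01 ± 0.61 (SD, n = 4) in wild-type optic nerve, a difference of -0.01 (exact permutation p = 0.921).

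**Figure D3:**
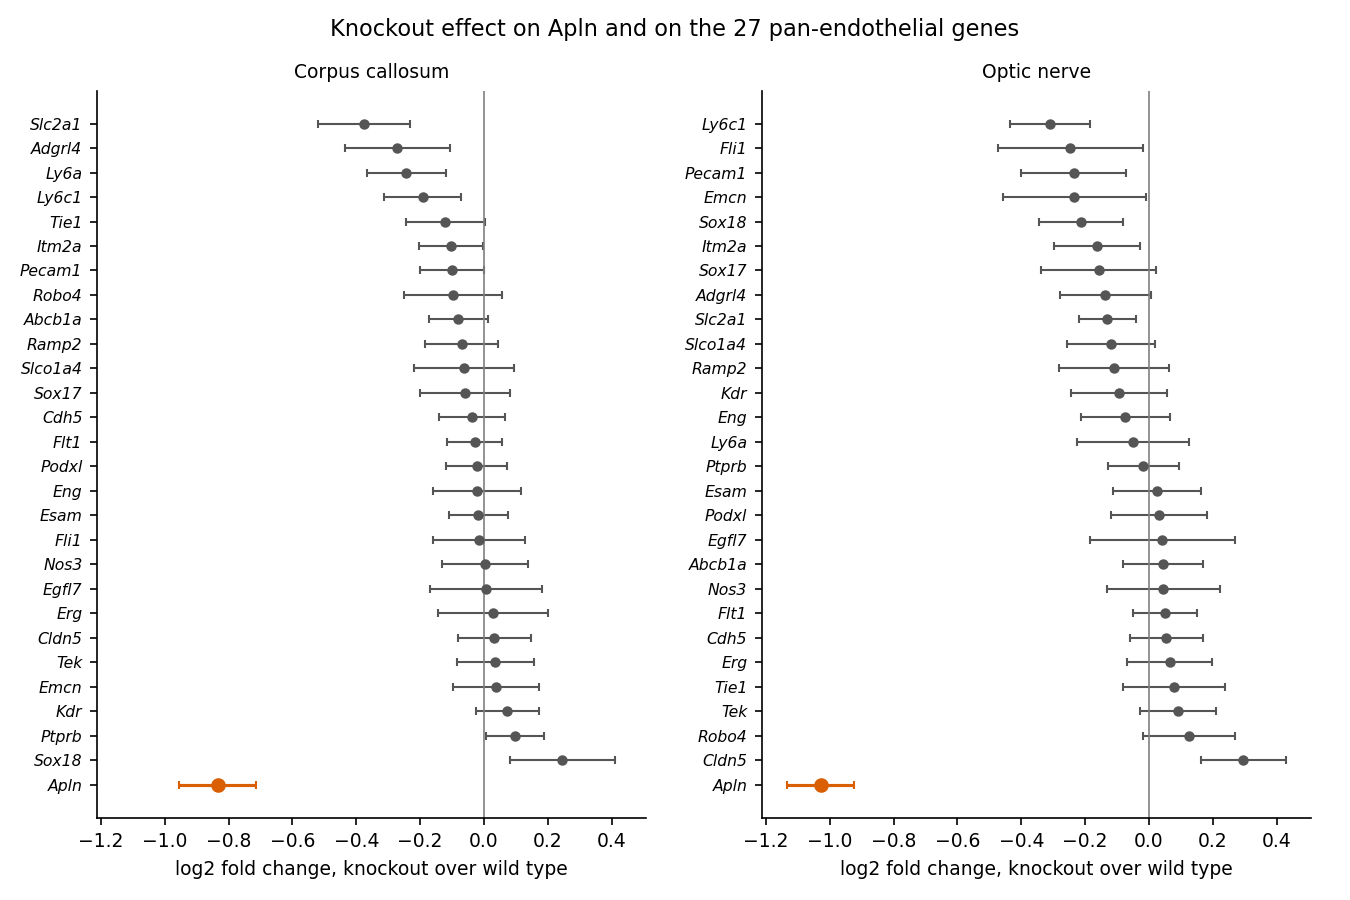
Log2 fold change (knockout over wild type, with SE) of Apln (orange) and of each of 27 pan-endothelial genes (grey) in corpus callosum and optic nerve. The 27 genes lie between -0.38 and 0.25 and between -0.31 and 0.30, and Apln lies at -0.83 and -1.03.

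Specialised vessel lists did not pass either. Tip cell genes had a median of 0.04 in callosum (9 tested) and 0.15 in optic nerve (10 tested), with 7 and 9 positive. In optic nerve the tip cell genes with the smallest p were Mcam, an endothelial adhesion gene, at 0.63 (SE 0.15, edgeR adjusted p = 0.662), Nid2, a basement membrane gene, at 0.31 (SE 0.20), and Angpt2, the Tie2 ligand gene, at 0.16 (SE 0.16). Arterial genes had medians of -0.21 and -0.15, capillary genes -0.06 and -0.14, venous genes -0.24 and 0.19 and mural genes -0.19 and 0.07 in callosum and optic nerve. None of these genes passed in either tract, where 0.0387% (callosum) and 0.0129% (optic nerve) of all genes passed.

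The rest of the apelin pathway was examined in the same way, and none of the genes passed in either tract. Of 9 measured genes that process or break down the peptide, 5 were negative in each tract. Mme, which codes for neprilysin, had 0.84 (SE 0.22) in callosum and -0.38 (SE 0.35) in optic nerve. Prcp, a lysosomal carboxypeptidase gene that cleaves after proline, had -0.32 (SE 0.11) and -0.19 (SE 0.15). The coupling list holds G protein, arrestin and receptor kinase genes, besides Agtr1a, Agtrap, Oprk1 and Bdkrb1, which belong to other receptors. Its medians were 0.04 (16 tested) and 0.10 (15 tested). Gnai1, an inhibitory G protein subunit, had -0.27 (SE 0.12) and -0.27 (SE 0.15), and Arrb1, a beta-arrestin, had 0.34 (SE 0.15) and 0.21 (SE 0.09).

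Genes downstream of the receptor had medians of 0.01 and -0.08 (22 tested in each). Klf2, a flow-responsive endothelial transcription factor gene, had -0.73 (SE 0.14) in callosum. The caveolin gene Cav1 had -0.40 (SE 0.11) there. In optic nerve the kinase gene Prkaa1 had -0.17 (SE 0.10). Factors tied to Apln transcription had medians of -0.04 and -0.02 (9 tested), with Usf1, which binds E-boxes, at -0.15 (SE 0.09) and 0.10 (SE 0.07). Of 21 measured hypoxia targets, 15 were negative in callosum (median -0.15) and 8 in optic nerve (median 0.03), with Ndrg1 at -0.58 (SE 0.17) and Ddit4 at -0.55 (SE 0.17) in callosum and Bnip3 at -0.17 (SE 0.11) and Pfkfb4 at 0.27 (SE 0.15) in optic nerve. Other vascular ligand and receptor genes had medians of -0.03 (26 tested) and 0.05 (27 tested). Of the 20 lists examined, cell type markers included, none held a passing gene in either tract. Over all genes 0.0387% passed in callosum and 0.0129% in optic nerve, so lists of this size would mostly hold none. Nothing is read from these counts.

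Between the tracts, the Aplnr level averaged 5.03 ± 1.92 CPM (SD, n = 4) in wild-type optic nerve and 0.141 ± 0.108 CPM (SD, n = 5) in wild-type callosum, a fitted log2 difference of 5.00 (SE 0.51). In knockout the averages were 4.78 ± 1.35 (SD, n = 5) and 0.242 ± 0.188 CPM (SD, n = 6), a log2 difference of 4.25 (SE 0.44). Aplnr entered this fit through optic nerve alone, since it missed the minimum count in callosum, so no test is given. The callosum and optic nerve libraries did not overlap in either genotype, and the share of all genes for which this holds was not counted. Genes with an adjusted p under 0.05 by edgeR and an absolute log2 change of at least 1 were 26.2% of those tested in wild type (13% higher in optic nerve). In knockout they were 30.1% (14.9% higher in optic nerve). These shares count any change of at least 1, and the share of genes that differ by as much as Aplnr was not counted. Behind these fold changes are 47 to 163 Aplnr reads per optic nerve library and at most 15 per callosum library.

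The fitted log2 difference of Apln, optic nerve over callosum, was 0.71 (SE 0.12) in wild type and 0.53 (SE 0.11) in knockout, both under the fold minimum. At any fold change, 51.3% of all genes in wild type and 62.9% in knockout had an adjusted p under 0.05. The Apln ranges of the tracts did not overlap within a genotype, and the share of all genes for which this holds was not counted.

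Vessel genes were compared between the tracts against the 13% of all genes that were higher in wild-type and the 14.9% that were higher in knockout optic nerve. All 27 endothelial genes were positive in wild type (median 0.86, 10 passing), of which 20 lay above Apln. Cdh5 rose most clearly by p, at 2.35 (SE 0.12, edgeR adjusted p = 4.49e-12), and Kdr rose by 1.18 (SE 0.14). In knockout 12 passed and the median was 0.91. Of 8 venous genes 6 rose in wild type (median 2.09) and 7 in knockout (median 2.60), led by Nr2f2, the transcription factor gene of venous identity, at 3.76 (SE 0.18) in wild type.

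Of 10 tip cell genes 6 rose and 1 fell in wild type (median 1.62), among them Angpt2 at 4.26 (SE 0.25), Igfbp3, an insulin-like growth factor binding protein gene, at 3.71 (SE 0.26), and Adm, the adrenomedullin gene, at 3.35 (SE 0.34). Arterial genes had a median of 0.57 with 3 rising and 1 falling, Hey1 at -1.03 (SE 0.15). Capillary genes had a median of -0.27 with 1 of 8 rising, a share near that of all genes, and mural genes 1.02 with 6 of 12 rising.

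Markers of other cells differed as well. Of 10 fibroblast genes 9 rose (median 6.03 in wild type), and their summed level was 8905 to 14261 CPM in wild-type optic nerve against 678 to 1046 CPM in callosum. Of 16 neuron genes 14 fell (median -3.34). How much of the Aplnr difference goes with these shifts in cell makeup was not tested.

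**Figure D4:**
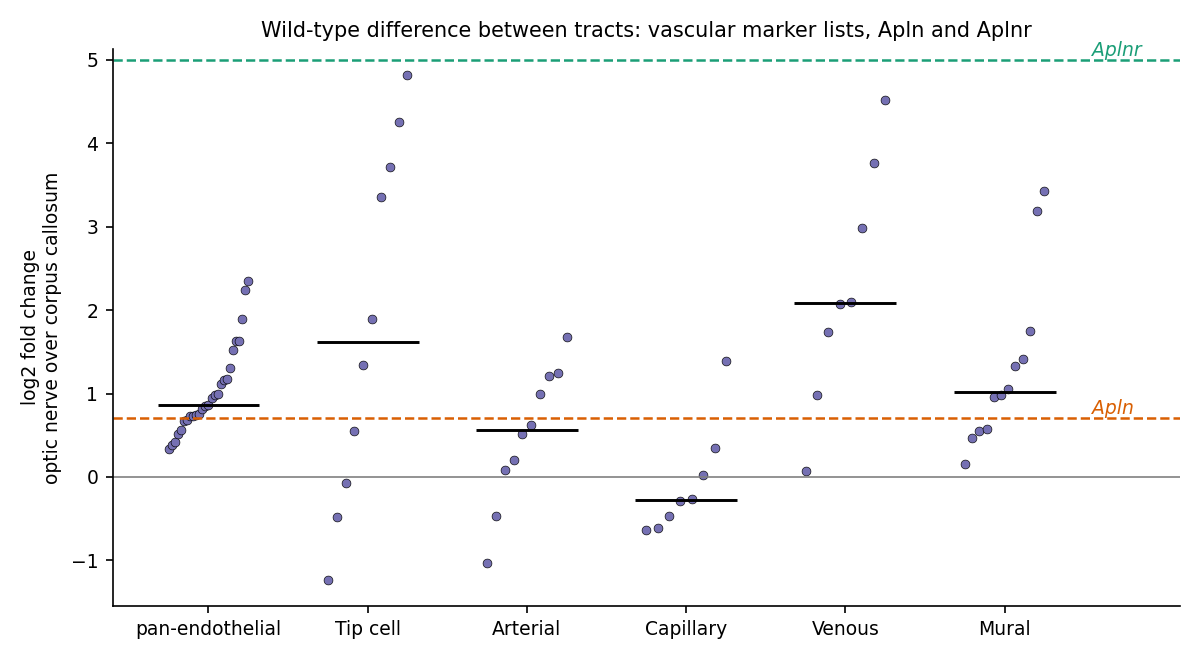
Log2 fold change of wild-type optic nerve over wild-type corpus callosum for each gene of 6 vascular marker lists (points, black bar at the list median), with Apln (0.71) and Aplnr (5.00) as dashed lines. Apln lies below 20 of the 27 pan-endothelial genes. Aplnr entered the fit through optic nerve alone, with 0 to 7 reads per wild-type callosum library, so it is not ranked against them.

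Pathway genes are given beside the 26.2% of all genes that passed in wild type. The processing, coupling, downstream, transcription factor and hypoxia lists passed at shares near it, so nothing is read from their counts. Ace, the angiotensin-converting enzyme gene, rose by 3.35 (SE 0.24) and Prcp by 1.44 (SE 0.14), while Mme fell by 1.92 (SE 0.30), in wild type. Of the 16 genes in the coupling list 1 rose, Agtrap, a gene of angiotensin receptor trafficking, at 2.03 (SE 0.15). From the same list 2 fell, among them Oprk1, the kappa opioid receptor gene, at -3.38 (SE 0.67). Agtrap and Oprk1 belong to other receptors and do not themselves couple the apelin receptor. Of 22 downstream genes 5 rose and 2 fell, with Fgf2, a fibroblast growth factor gene, at 2.86 (SE 0.22) and Klf4 at 2.38 (SE 0.26). Of 9 factors tied to Apln transcription Nr2f2 and Stat3 (1.16, SE 0.11) rose and Mef2c fell (-2.05, SE 0.42). Of 21 hypoxia targets 4 rose and 1 fell, Car9, a carbonic anhydrase gene, at -3.35 (SE 0.37), and of 27 other vascular ligand and receptor genes 14 rose and 1 fell.

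The genes most like Apln were ranked by Pearson correlation of log2 CPM over all 20 libraries, which share depth and sample with Apln, so the values are a description. Once each group's mean was subtracted, the closest of 12997 genes were B3galt5, which codes for a galactosyltransferase (r = 0.83, Spearman coefficient 0.87), Tifa, an adapter of NF-kappa B signalling (r = 0.83, Spearman 0.80), Wwp1, a ubiquitin ligase gene (r = 0.82, Spearman 0.85), Ahcyl1 (r = 0.80, Spearman 0.84) and Utp6 (r = 0.80, Spearman 0.82). For B3galt5 the value was 0.84 within callosum libraries and 0.83 within optic nerve libraries, while for Tifa it was 0.97 and 0.37. Without subtracting group means the closest were B3galt5 (r = 0.91), Ippk (0.87), Usp31 (0.86), Elovl5 (0.85) and Bcl2l1 (0.85).

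B3galt5 averaged 87.3 ± 14.9 CPM (SD, n = 6) in knockout and between 98.4 and 167 in the 5 libraries of wild-type callosum, and 142 ± 8.64 (SD, n = 5) and 194 ± 26.6 (SD, n = 4) in optic nerve. Its log2 fold change was -0.56 (SE 0.15) in callosum and -0.47 (SE 0.10, edgeR adjusted p = 0.562) in optic nerve, and it did not pass in either tract. Like Apln, B3galt5 was higher in callosum libraries with short numbers. It had 93.9 and 114 against 71.7 to 82.1 CPM in knockout, and 147 and 167 against 98.4 to 118 CPM in wild type. Subtracting group means does not remove this shift, so the callosum correlation includes it. Of the main endothelial genes, r with Apln once group means were subtracted was -0.56 for Pecam1, -0.51 for Cldn5, -0.45 for Kdr and -0.40 for Cdh5. Over the 27 endothelial genes r ran from -0.66 to 0.48 with a median of -0.34. The median was -0.51 over the 10 fibroblast genes, -0.39 over the 12 mural genes, -0.25 over the 16 neuron genes, 0.22 over the 17 oligodendrocyte genes, 0.38 over the 10 astrocyte genes and 0.00382 over all genes. Zdhhc9 itself had r = 0.14 once group means were subtracted.

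**Figure D5:**
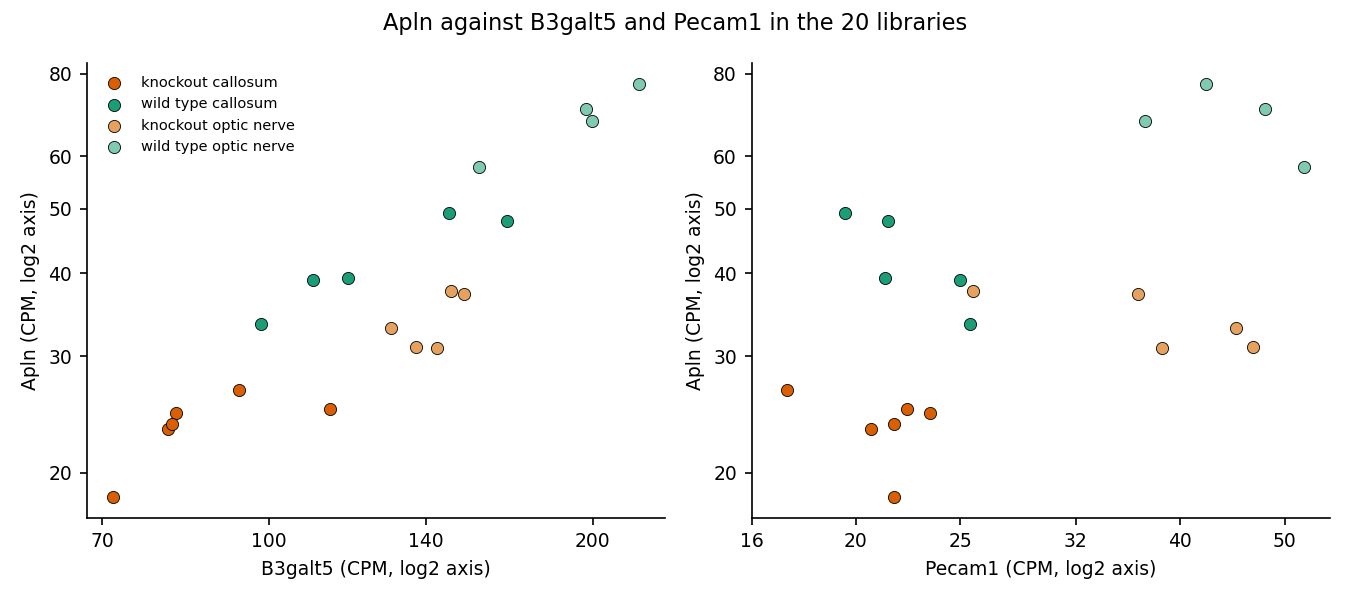
CPM of Apln against CPM of B3galt5 (left) and Pecam1 (right), log2 axes, 1 point per library coloured by group. Within groups, libraries with more B3galt5 have more Apln (r = 0.83 after group means are subtracted), and those with more Pecam1 have less (r = -0.56). In callosum Apln and B3galt5 are both higher in libraries with short numbers, which subtracting group means does not remove.

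For Aplnr the same ranking rests in callosum on 0 to 15 reads per library. With group means subtracted the closest genes were Smn1 (r = 0.71), Arc (0.70), Psmc1 (0.67), Dmac1 (0.66) and Ly6g6f (0.64), and Apln had r = -0.07. Without subtracting them the closest were Gadd45b (0.97), Agt (0.96), Islr (0.96), Eya2 (0.96) and Wnt6 (0.96). In optic nerve libraries alone these 5 had r of -0.23, 0.28, -0.54, -0.32 and -0.17 with Aplnr, and each of them was higher in optic nerve than in callosum, Gadd45b by 2.61 (SE 0.18) in wild type and Wnt6 by 10.54 (SE 0.42).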

How the data were processed

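RNA-seq of total RNA from 20 mouse libraries was analysed from a table of estimated counts per gene that the authors deposited. Stranded mRNA libraries were made per the labels' protocols, and the build mm10 is named in the submitters' processing notes. Estimated counts were rounded, genes were filtered by filterByExpr (minimum count 10, total 15), scaled by TMM and tested with edgeR 4.0.16 by quasi-likelihood and Benjamini-Hochberg adjustment at 0.05 over all genes. Knockout comparisons used 1 tract, and tract comparisons used all 4 groups and a log2 minimum of 1. SE is the log2 fold change over the square root of F. The p-values measure the spread between libraries. Symbols came from GENCODE M21 and promoters from RefSeq. Other fits used DESeq2 1.42.0 and limma 3.58.1, and exact tests scipy 1.17.1. The edgeR script was tested on simulated data. Members and lists were chosen with earlier results of these data known, and 2 listed genes had no row. Genes named from each list were up to 4 with the smallest p in a comparison, besides the members, Zdhhc9, Pecam1, Cldn5, Cdh5 and Kdr, the neighbours within 1 Mb and the 5 most alike genes by correlation (prior count 2, mean log2 CPM of at least 1).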

Additional observations from a re-analysis of the deposited data

Results flagged for a closer look

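Of the 12 sets of values of the 3 genes by group, 1 held a library far from the others. Apela in the knockout optic nerve library KO_ON_719856 was at 0.228 CPM, from 4 reads, against 0 or 1 read in the other libraries of that group. Chance gives such a library in about 1 of 20 sets.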

How the results depend on the processing

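The Apln difference in optic nerve kept its sign under all alternatives run, and its call under all but 2: libraries numbered in digits alone (-0.94, adjusted p = 0.117 by edgeR) and, added after seeing the data, numbers that do not recur in callosum (-1.26, adjusted p = 0.0554). Among the non-recurring numbers, genotype and number form coincide. Leaving out each library gave -1.10 to -0.96 (edgeR adjusted p from 0.00314 to 0.0414). Relative to endothelial genes the leave-one-out range was -1.09 to -0.87. The Apln callosum value ran from -0.91 to -0.73 over all alternatives, but the call by which Apln was chosen was lost in 10 of 11 leave-one-out fits and in 5 of 10 others (with the endothelial, neuron or oligodendrocyte level as a covariate, and within short and within long numbers). Aplnr in optic nerve changed sign with the oligodendrocyte level as a covariate (0.30) and without KO_ON_719856 or WT_ON_719857 (leave-one-out range -0.25 to 0.21). Relative to endothelial genes it ran from -0.23 to 0.25, positive without KO_ON_693452, KO_ON_719856, WT_ON_701297 or WT_ON_719857. Genes passing in optic nerve were 35 by DESeq2, 1 among digits-only libraries and 0 among non-recurring numbers (1680 at an unadjusted p under 0.05 by edgeR), and 2 without each library. In callosum, against 6, they were 174 by DESeq2, 41 in the fit of 4 groups, 10 with the number form as a covariate, 3 with the oligodendrocyte or the endothelial level, 2 among long and 0 among short numbers (984 unadjusted by edgeR). Leave-one-out counts ran from 2 to 41: 41 without WT_CCg_685232, 3 without KO_CCg_27 or KO_CCg_29, and 2 without KO_CCg_693451, KO_CCg_719856, WT_CCg_28, WT_CCg_30, WT_CCg_717652 or WT_CCg_7198587. The causes were not tested.

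Deviations of same-numbered libraries correlated at 0.018, -0.15, 0.13 and -0.053. The libraries compared come from different tracts, so these values cannot decide whether a shared number marks the same animal. With a replicate block on the 3 knockout numbers the tract difference was 0.71 for Apln (SE 0.17), 4.27 for Aplnr (SE 0.62) and 4410 genes passed. With the limma-voom replicate block Apln was 0.52 in knockout and 0.73 in wild type, Aplnr 4.47 and 5.07, and 4918 and 4291 genes passed. Depth limits Aplnr in callosum and Apela everywhere.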

Other observations

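Esm1, a tip cell gene chosen here after its values were seen, is another vessel gene near 0 in callosum and present in optic nerve. It averaged 0.108 ± 0.0656 CPM (SD, n = 5) in wild-type callosum and 3.25 ± 1.68 CPM (SD, n = 4) in wild-type optic nerve, a log2 difference of 4.82 (SE 0.59), beside 5.00 (SE 0.51) for Aplnr. In knockout the values were 5.00 (SE 0.53) for Esm1 and 4.25 (SE 0.44) for Aplnr. Callosum libraries held at most 5.46 estimated counts of Esm1 in wild type and 5.01 in knockout. Both genes thus have fold changes over a level near 0, and their likeness was not tested.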
